A study of Homo sapiens with 4 samples.

Results

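The genes described here are 9 genes of inflammatory signalling: the cytokines IL6, IL11 and LIF, the chemokines IL8 (now named CXCL8), CXCL1, CXCL12 and CCL2, and the NF-kB feedback genes NFKBIA and TNFAIP3. They were taken by symbol from the 25559 gene symbols of the count tables. The study sequenced poly(A) RNA of HGC27 cells, a human line from a poorly differentiated gastric carcinoma that had spread to a lymph node, as 2 wildtype (wt) libraries and 2 RUNX3 knock-out (RUNX3KO) libraries, to find genes that depend on the transcription factor RUNX3. The cells grew in medium with fetal bovine serum, and no cytokine or other stimulus is named for these libraries. The RUNX3KO cells had been transduced with a lentivirus that carried Cas9 and a guide against exon 3 of RUNX3, selected with puromycin and passed through single-cell cloning. What the wt cells had been transduced with, how many clones were used and whether the replicates were separate cultures is not given in the sources used here, so the p-values measure the spread between these libraries, and RUNX3 loss cannot be told apart from differences between clones.

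NF-kB dimers are held in the cytoplasm by IkB proteins, of which IkBα, the product of NFKBIA, is the best known. Signals from the TNF, IL-1 and Toll-like receptors lead to the destruction of IkB, and the freed dimers enter the nucleus and switch on cytokine and chemokine genes. They also switch on NFKBIA and TNFAIP3, which encodes the ubiquitin-editing enzyme A20, and both products shut the signal off again. IL-6, IL-11 and LIF signal through receptors that share the chain encoded by IL6ST, and from there through JAK kinases and STAT3. The chemokines recruit leukocytes: IL-8 and CXCL1 attract neutrophils, CCL2 attracts monocytes and CXCL12 acts through CXCR4.

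The table of RefSeq promoters used here held 7 of the 9 genes, and the promoters of CCL2 and LIF were not analysed here. The 250 bases before the start of each of the 7 genes were searched on both strands for the kB consensus, the site that NF-kB dimers recognise. TGTGGT and TGCGGT, 2 forms of the RUNX site, were searched as well. The kB consensus was taken strictly as GGGRNNYYCC (R is A or G, Y is C or T, N is any base). The IL8 window holds tggaatttcc, which differs from this pattern in its first base and was not counted as a match. The kB consensus was found in 4 of the 7, against 9.96% of 35116 promoters of the same length. These 4 are shown because they hold the element through which NF-kB binds DNA. Their positions are on GRCh37, where each RefSeq sequence had 1 exact match (the RefSeq starts of IL6 and TNFAIP3 lie inside the GENCODE genes given later), and the capitals mark the kB matches.
NFKBIA, chr14:35873956-35874205, minus strand: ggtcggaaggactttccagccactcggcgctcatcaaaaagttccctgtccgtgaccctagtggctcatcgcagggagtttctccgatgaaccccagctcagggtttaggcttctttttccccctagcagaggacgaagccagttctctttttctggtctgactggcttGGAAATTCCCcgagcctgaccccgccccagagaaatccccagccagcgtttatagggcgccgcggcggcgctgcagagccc
TNFAIP3, chr6:138188146-138188395, plus strand: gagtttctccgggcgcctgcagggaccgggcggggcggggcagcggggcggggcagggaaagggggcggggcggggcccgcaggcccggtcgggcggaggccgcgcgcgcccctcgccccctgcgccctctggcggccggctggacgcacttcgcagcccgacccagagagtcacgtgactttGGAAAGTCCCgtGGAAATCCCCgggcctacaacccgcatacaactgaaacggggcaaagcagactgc
CXCL1, chr4:74734860-74735109, plus strand: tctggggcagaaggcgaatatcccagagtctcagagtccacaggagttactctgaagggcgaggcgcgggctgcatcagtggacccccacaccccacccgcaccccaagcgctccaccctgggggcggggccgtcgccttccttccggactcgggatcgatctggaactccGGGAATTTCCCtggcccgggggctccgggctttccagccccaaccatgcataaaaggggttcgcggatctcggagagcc
IL6, chr7:22766569-22766818, plus strand: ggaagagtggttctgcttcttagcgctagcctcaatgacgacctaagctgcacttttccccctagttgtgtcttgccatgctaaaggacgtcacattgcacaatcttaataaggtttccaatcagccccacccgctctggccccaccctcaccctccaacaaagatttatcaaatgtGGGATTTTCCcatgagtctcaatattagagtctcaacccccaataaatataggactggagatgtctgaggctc
The match lay 81 to 72 bases before the start in NFKBIA and 73 to 64 bases before it in IL6. TNFAIP3 held 2 matches, from 67 to 58 and from 55 to 46 bases before the start. In CXCL1, matches on the plus and minus strands overlapped, at 79 to 70 and 78 to 69 bases. Neither RUNX form was found in any of the 7 windows, whereas TGTGGT was found in 11.0% and TGCGGT in 5.84% of all promoters. AP-1 sites (TGANTCA) were present in IL8 and IL11 and a C/EBP site (TTGCNNAA) in IL6. A match is a description of the letters, and no match says only that these letters are not in this window.

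Each library held between 11731401 and 12110876 gene counts. The chi-square between replicates, divided by its degrees of freedom, was 1.22 for wt and 1.18 for RUNX3KO libraries, where counting noise alone gives about 1. RUNX3, the targeted gene, had 351 and 308 counts in the wt libraries and 225 and 185 in the RUNX3KO libraries, so its transcript was lower (-0.70 on the log2 scale, SE 0.0961, edgeR adjusted p = 1.43e-09) but still counted. The study's methods state that the deletion was checked on mRNA and protein after cloning. The paper reports an immunoblot without RUNX3 protein in the knock-out cells, and protein was not analysed here. The epithelial markers were low but not all absent. EPCAM had at most 1 count and KRT19 had 0 counts in every library, while KRT8 rose from 19 and 11 counts in wt to 72 and 81 in RUNX3KO libraries, CDH1 rose from 15 and 21 to 30 and 32, and KRT18 had 0 and 0 against 2 and 14 counts. VIM, a mesenchymal marker, had from 33828 to 57834 counts, while CDH2, another mesenchymal marker, had at most 3 counts in every library. The fibroblast genes DCN and LUM had 1368 or more counts in each library. Of 12 leukocyte markers, 5 had 0 counts in all 4 libraries, and the 12 together reached from 1.58 to 3.22 CPM per library, with PTPRC between 0 and 5 counts. CPM are counts scaled to a common library size with edgeR's TMM factors.

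Levels of the 9 genes fell into 3 classes. IL8, CXCL1 and CXCL12 had 0 counts in all 4 libraries. IL6 and IL11 had at most 9 counts in any library. CCL2, NFKBIA, LIF and TNFAIP3 had between 16 and 512 counts, and only these 4 passed the filter on low counts and were tested. The test was edgeR's quasi-likelihood test, with a call at a Benjamini-Hochberg adjusted p under 0.05. In RUNX3KO cells, 3 of the 4 fell and 0 rose, and 0 rose at an unadjusted p under 0.05 as well. Among all 12967 genes tested, 24.4% fell and 24.5% rose, so that 48.9% changed by this rule. By DESeq2, 2 of the 4 fell and 0 rose, with 1863 genes lower and 1829 higher in all. Without RUNX3KO replicate 1 the edgeR counts over all genes were 1531 and 1483, and without RUNX3KO replicate 2 they were 1378 and 1285. The study's criterion was a 2-fold or larger change with a p of at most 0.05. It was applied there to values normalized by another method, and the paper does not say whether p was adjusted. With these cut-offs on edgeR's fold change and unadjusted p, 2 of the 4 fell, against 4.01% of all genes tested. By the same rule 2.11% rose and 6.12% changed either way. The 2 were CCL2 and LIF, and LIF was under 2-fold without wt replicate 1 (-0.98 on the log2 scale) and without RUNX3KO replicate 1 (-0.76), which leaves 1. A low count can come from fewer cells that express a gene or from less RNA per cell, which cannot be told apart in bulk RNA.

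**Figure D1:**
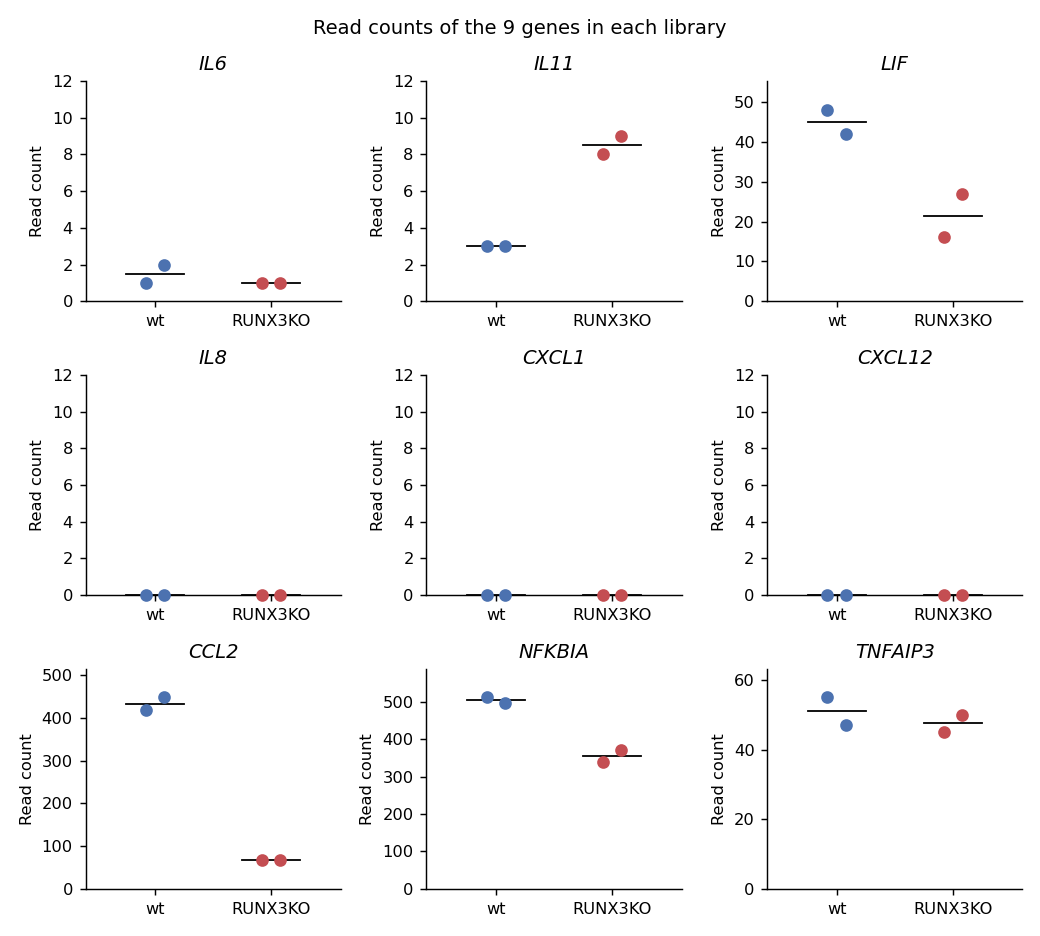
Read counts (y axis, linear, from 0) of each of the 9 genes in the 2 wt libraries (blue points) and the 2 RUNX3KO libraries (red points), with black lines at the group means. CCL2 drops from 418 and 448 to 67 and 68 counts, NFKBIA and LIF drop less, TNFAIP3 overlaps between the groups, and IL8, CXCL1 and CXCL12 stay at 0.

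CCL2 encodes the monocyte attractant CCL2 (MCP-1), and its gene spans 32582293 to 32584227 on the plus strand of chromosome 17 (GRCh37). It had 418 and 448 counts in the wt libraries and 67 and 68 in the RUNX3KO libraries. Both RUNX3KO libraries lay far below both wt libraries, and replicates were close to each other. Wt cells had 36.7 ± 1.81 CPM of CCL2, and RUNX3KO cells had 5.67 ± 0.0144 CPM (SD, n = 2). This 6.46-fold fall was a log2 fold change of -2.69 with an SE of 0.113 and an edgeR adjusted p of 2.04e-37. CCL2 ranked 111 by fold change and 37 by p among the 3158 genes that fell. Markers of fibroblasts, another cell type that makes CCL2, also differed between the groups. Those of leukocytes, which make it too, were mostly near the floor. Of 9 fibroblast and endothelial markers, 5 were tested, 4 fell and 1 (PDPN) rose, and their summed level was 347.7 and 344.4 CPM in wt and 260.5 and 252.9 CPM in RUNX3KO libraries. The endothelial markers PECAM1, CDH5 and KDR had 0 counts throughout. Of the 12 leukocyte markers, 7 had at most 3 counts in every library. Only 1 was tested, and it was called lower, also by the 2-fold rule. The summed level of the 12 was 2.20 and 3.22 CPM in wt and 2.03 and 1.58 CPM in RUNX3KO libraries. Of the 7 epithelial and HGC27 markers, VIM fell and KRT8 and CDH1 rose. The part of these shifts in the fall of CCL2 was not tested.

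The profile of CCL2 over the 4 libraries was closest to those of GRIK3, a glutamate receptor gene, and GPR126, an adhesion G protein-coupled receptor gene. Likeness was the Euclidean distance between log2 CPM centred per gene over the 4 libraries, which was 0.129 for GRIK3 and 0.146 for GPR126. GRIK3 went from 662 and 652 counts to 106 and 98, and GPR126 from 88 and 103 to 16 and 16. With 2 groups of 2, this distance mainly compares the size of the fall.

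The other chemokine members had no counts. IL8 (chromosome 4 from 74606236 to 74609433, plus strand) and CXCL1 (chromosome 4 from 74735110 to 74737025, plus strand) lie 126 kb apart in the cluster of neutrophil-attracting chemokines. CXCL12 lies on chromosome 10 from 44865613 to 44881941 (minus strand). A count of 0 allows up to 3 counts per library, which is at most 0.254 CPM. A difference between wt and RUNX3KO cells was therefore not detectable at this depth for these 3 genes. Their relatives in the chromosome 4 cluster were as low. CXCL2, CXCL5 and CXCL6 had 0 counts throughout, and CXCL3 had 1 count in 1 wt library. CXCL1, CXCL2 and CXCL3 are close copies of each other, so that reads shared between them may have been dropped in counting.

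Of 40 further chemokine genes, 36 had at most 3 counts in every library, 26 of them 0, and 3 could be tested. CXCL14, a chemokine of epithelia, fell from 48 and 50 counts to 11 and 4 (-2.70 on the log2 scale, SE 0.329, edgeR adjusted p = 2.17e-11). CXCL16 and CX3CL1, the chemokines made as membrane proteins, had log2 fold changes of 0.34 (SE 0.208) and -0.40 (SE 0.282) and did not pass the test. They were named after their values were seen, to complete the count. The summed level of the 40 genes was 12.9 and 11.2 CPM in wt libraries and 9.57 and 7.15 CPM in RUNX3KO libraries.

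The receptors of these chemokines were low as well. CXCR1 and CCR2, receptors for IL-8 and CCL2, had 0 counts in all 4 libraries. CXCR2 had at most 1 count. CXCR4, the CXCL12 receptor, had 9 and 9 counts in wt and 5 and 3 in RUNX3KO libraries and was not tested, and CXCR7, its second receptor (now ACKR3), had at most 1 count.

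LIF, leukemia inhibitory factor, was the only one of the 3 IL6ST-linked cytokines that could be tested. Its gene spans 30636442 to 30642748 on the minus strand of chromosome 22. It had 48 and 42 counts in wt libraries and 16 and 27 in RUNX3KO libraries. The groups did not overlap, but the RUNX3KO libraries differed from each other more than the wt libraries did. LIF stood at 3.81 ± 0.358 CPM in wt and at 1.80 ± 0.630 CPM in RUNX3KO cells (SD, n = 2). It thus fell 2.11-fold, or -1.07 on the log2 scale with an SE of 0.261, at an edgeR adjusted p of 0.000319. This call was lost with DESeq2 (log2 fold change -1.08, adjusted p = 0.0521) and without RUNX3KO replicate 1 (-0.76, adjusted p = 0.0884 by edgeR), and over all alternatives the adjusted p ranged from 0.000105 to 0.0884. LIF shares exon sequence with the antisense genes LIF-AS1 and LIF-AS2, and whether counting used strand is not given in the sources used here, so its counts may include theirs. The 40 tested genes nearest to LIF were all lower too (median -0.59 on the log2 scale), and their part in the fall of LIF was not tested.

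IL11 encodes a cytokine of stroma and bone. Its gene spans 55875750 to 55881831 on the minus strand of chromosome 19. It had 3 and 3 counts in wt and 8 and 9 in RUNX3KO libraries. It went opposite to LIF, but the counts were few. The ratio of summed counts, RUNX3KO over wt, was 2.81 with a 95% interval from 1.06 to 8.70 that covers counting error only. With no filter on low counts, the log2 fold change of IL11 was 1.45 (SE 0.456, edgeR unadjusted p = 0.0218, adjusted p = 0.0701), so it did not pass. IL6, on chromosome 7 from 22765503 to 22771621 (plus strand), had 1 and 2 counts in wt and 1 and 1 in RUNX3KO libraries. The ratio of its summed counts was 0.661 with an interval from 0.0552 to 5.77, so the depth does not set a direction for IL6, which also overlaps IL6-AS1 and STEAP1B on the other strand.

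The receptors for these cytokines were expressed above their ligands. As RPKM, the CPM divided by the length in kb of the canonical GENCODE transcript, IL11RA had 73.1 ± 1.30 and IL6ST 9.11 ± 0.116 RPKM in wt cells (SD, n = 2), where LIF had 0.985 RPKM. IL6ST, the shared chain, had 962 and 979 counts in wt and 935 and 987 in RUNX3KO libraries and did not pass the test (log2 fold change -0.03, SE 0.0498). IL6R also did not pass (0.18, SE 0.153). LIFR, the LIF receptor, fell from 1133 and 1150 to 848 and 856 counts (log2 fold change -0.44, SE 0.0492). IL11RA, the IL-11 receptor, fell from 1505 and 1467 to 1170 and 1199 counts (log2 fold change -0.34, SE 0.0432). Both falls were smaller than 2-fold. In edgeR the adjusted p was 1.24e-12 for LIFR and 9.02e-11 for IL11RA.

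Across the 27 genes listed as receptors and transducers, 17 were tested, of which 5 fell, 7 rose and 5 did not pass. The median log2 fold change was 0.06, beside -0.0021 for all genes tested. TYK2, a JAK-family kinase, fell by 0.43 on the log2 scale (SE 0.0381). The remaining genes that fell were STAT3 (log2 fold change -0.42), the transcription factor that these receptors activate, and PIAS3 (-0.34), which encodes an inhibitor of STAT3. SOCS2, a STAT-induced feedback gene, had the largest change among the 17 tested genes of the list, from 51 and 25 counts to 86 and 124 (log2 fold change 1.45, SE 0.199). SOCS3, the feedback inhibitor of IL6ST signalling, did not pass (0.06, SE 0.142). STAT3, PIAS3, SOCS2 and SOCS3 were named after their values were seen. The 7 rises became 3 without RUNX3KO replicate 1 and 4 without RUNX3KO replicate 2.

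Of 63 other cytokine genes, 12 were tested, 4 fell, 2 rose and 6 did not pass, with a median log2 fold change of -0.21. CLCF1, a cytokine that signals through the shared IL6ST chain and was named after its values were seen, fell from 78 and 60 to 47 and 33 counts (log2 fold change -0.80, SE 0.206). CSF1, a growth factor of macrophages, fell from 213 and 185 to 117 and 140 counts (-0.64, SE 0.119). MIF, macrophage migration inhibitory factor, had the most counts, and fell from 4268 and 4177 to 2685 and 2684 counts (-0.67, SE 0.0306). The genes that rose were IL32 (1.04, SE 0.275) and KITLG (0.42, SE 0.121), named to complete the count. By DESeq2, 3 fell and 0 rose, and without either RUNX3KO replicate 2 fell and 0 rose. IL1A and IL1B, inducers of NF-kB, had 0 counts in all 4 libraries, and TNF, another inducer, had 1 count in 1 RUNX3KO library.

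NFKBIA, the gene of IkBα, spans 35870285 to 35873955 on the minus strand of chromosome 14, directly after the promoter printed above. It had 512 and 498 counts in wt and 340 and 370 in RUNX3KO libraries. Both RUNX3KO libraries were below both wt libraries. NFKBIA had 42.8 ± 0.826 CPM in wt cells against 29.8 ± 1.39 CPM in RUNX3KO cells (SD, n = 2). This 1.44-fold fall, -0.52 on the log2 scale with an SE of 0.0740, had an edgeR adjusted p of 3.49e-09 and lay under the 2-fold mark. Of the 40 tested genes nearest to it, 38 were lower as well (median -0.37 on the log2 scale), and their part in the fall of NFKBIA was not tested.

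TNFAIP3, the gene of A20, spans 138188351 to 138204451 on the plus strand of chromosome 6. It had 55 and 47 counts in wt and 45 and 50 in RUNX3KO libraries. The groups overlapped. TNFAIP3 had 4.32 ± 0.478 CPM in wt and 3.99 ± 0.245 CPM in RUNX3KO cells (SD, n = 2), and the log2 fold change of -0.12 did not pass (SE 0.207, edgeR adjusted p = 0.679). Its 95% interval ran from -0.52 to 0.29, so a fall as large as that of NFKBIA lies at its edge. Without wt replicate 1 the log2 fold change was 0.0021. The antisense RNA WAKMAR2 shares exon sequence with TNFAIP3.

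**Figure D2:**
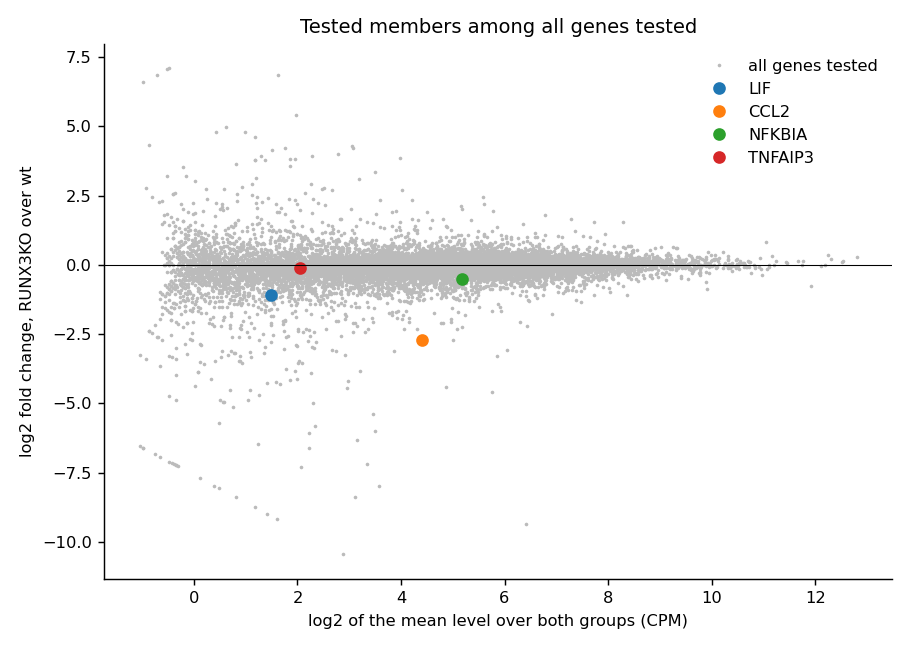
log2 fold change, RUNX3KO over wt (y axis), against the log2 of the mean level in CPM (x axis) for all 12967 genes tested (grey points), with the 4 tested members in colour. CCL2 lies below the main cloud at -2.69, LIF and NFKBIA lie at -1.07 and -0.52, and TNFAIP3 lies near 0.

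On the RPKM scale, which allows levels of different genes to be compared, the order of the 9 genes changed between groups. In wt cells, CCL2 was the highest with 49.5 ± 2.44 RPKM, followed by NFKBIA with 27.4 ± 0.530 RPKM (SD, n = 2). In RUNX3KO cells this order turned, with NFKBIA at 19.1 ± 0.894 RPKM and CCL2 at 7.65 ± 0.0194 RPKM (SD, n = 2). LIF and TNFAIP3 followed in wt cells with 0.985 ± 0.0926 and 0.926 ± 0.103 RPKM (SD, n = 2), a difference within their spread. In RUNX3KO cells they had 0.465 ± 0.163 and 0.854 ± 0.0525 RPKM (SD, n = 2). IL6 and IL11 stayed at or below 0.300 RPKM in both groups, and IL8, CXCL1 and CXCL12 were at 0.

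The members that fell differed in what their chromosomal neighbours did. For each of the 4 tested members, the 20 nearest tested genes on each side were taken from the GENCODE annotation on GRCh37. Around CCL2, 13 of 40 neighbours were lower in RUNX3KO cells, 7 of them by the test. The median of the 40 was 0.11, and none fell as much as CCL2. The 2 neighbours on each side of CCL2 had log2 fold changes of -0.38 (TMEM98) and -1.73 (MYO1D) on one side and -0.72 (TMEM132E) and 0.16 (ZNF830) on the other, and their part in the fall of CCL2 was not tested. Around LIF, 36 of the 40 were lower by the test, and 5 fell at least as much as LIF. Around NFKBIA, 32 of the 40 were lower by the test and 1 higher, and for 9 of them the fall matched or exceeded that of NFKBIA. TNFAIP3 had a mixed neighbourhood, with 19 of 40 lower and a median of 0.02.

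Against its neighbours' median, the difference of CCL2 was -2.80 on the log2 scale. This difference was -0.49 for LIF, -0.15 for NFKBIA and -0.13 for TNFAIP3. Other genes named here had neighbourhoods of both kinds. The 40 nearest genes had a median of -0.45 around MIF, -0.54 around TAB1, -0.30 around TYK2 and -0.28 in the 28 neighbours of KLF6, but 0.07 around CXCL14, 0.08 around CSF1, 0.26 around LIFR and 0.39 around FAM105B, a gene that rose.

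The machinery of NF-kB itself was expressed in both groups. Of the 5 subunit genes, all were tested and 1 changed. NFKB2, which encodes p100, rose from 588 and 612 counts to 760 and 780 (0.35 on the log2 scale, SE 0.0586, edgeR adjusted p = 4.03e-07). RELA had 841 and 873 counts in wt and 806 and 886 in RUNX3KO libraries (-0.03, SE 0.0533). NFKB1 (0.02, SE 0.0553), REL (0.14, SE 0.136) and RELB (0.10, SE 0.208) did not pass either. Per length, RELA was the highest of the 5 with 28.9 ± 0.770 RPKM in wt cells (SD, n = 2).

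Of 50 receptors, adaptors and kinases upstream of NF-kB, 34 were tested, 7 fell, 7 rose and 20 did not pass, with a median log2 fold change of -0.07. TNFRSF12A, the receptor of TWEAK, rose from 584 and 591 to 786 and 819 counts (log2 fold change 0.44, SE 0.0582). TLR3, the sensor of double-stranded RNA, rose from 15 and 21 to 36 and 47 counts (1.19, SE 0.276). TAB1, an adaptor of the kinase TAK1, fell from 495 and 472 to 340 and 378 counts (-0.44, SE 0.0749). The IkB kinase genes CHUK (0.11, SE 0.0431), IKBKB (-0.02, SE 0.0802) and IKBKG (-0.16, SE 0.107), named after their values were seen, had small log2 fold changes, and of these CHUK passed the test at an edgeR adjusted p of 0.0331. By DESeq2, 1 gene of the 34 fell and 3 rose, and without either RUNX3KO replicate 1 fell and 2 rose.

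NFKBIA was compared with the other inhibitors and feedback genes of NF-kB. Of 25 listed genes in the files, 24 were tested, 1 fell, 4 rose and 19 did not pass, and the median log2 fold change was 0.04. NFKBIB and NFKBIE, the genes of IkBβ and IkBε, had log2 fold changes of 0.02 (SE 0.0730) and 0.16 (SE 0.147). They were named after their values were seen. CYLD, a deubiquitinase, fell from 639 and 571 to 431 and 440 counts (-0.49, SE 0.0684). FAM105B (now OTULIN), a deubiquitinase of linear chains, rose from 400 and 389 to 586 and 595 counts (0.57, SE 0.0692). TNIP1, which encodes a partner of A20, rose from 598 and 632 to 747 and 713 counts (0.23, SE 0.0596). By DESeq2, 1 fell and 1 rose, and without either RUNX3KO replicate 0 fell and 1 rose by edgeR.

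Among 42 listed target genes of NF-kB, some of which also stand in the lists above (NFKB2 and CSF1 among those called), 23 were tested, 7 fell, 5 rose and 11 did not pass. Their median log2 fold change was -0.02. VCAM1, an adhesion molecule for leukocytes, fell from 273 and 279 to 172 and 161 counts (-0.74, SE 0.102). KLF6, a zinc finger factor, fell from 689 and 711 to 539 and 519 counts (-0.42, SE 0.0622). PTX3, a secreted pattern recognition protein, had 17 and 13 counts in wt and 0 and 0 in RUNX3KO libraries, at least 5.05-fold lower against a floor of 3 counts per library. The adjusted p was 1.17e-09 for VCAM1, 1.52e-08 for KLF6 and 1.81e-08 for PTX3 in edgeR. Of the 23, 5 fell and 2 rose by DESeq2, and 4 fell and 2 rose without either RUNX3KO replicate.

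**Figure D3:**
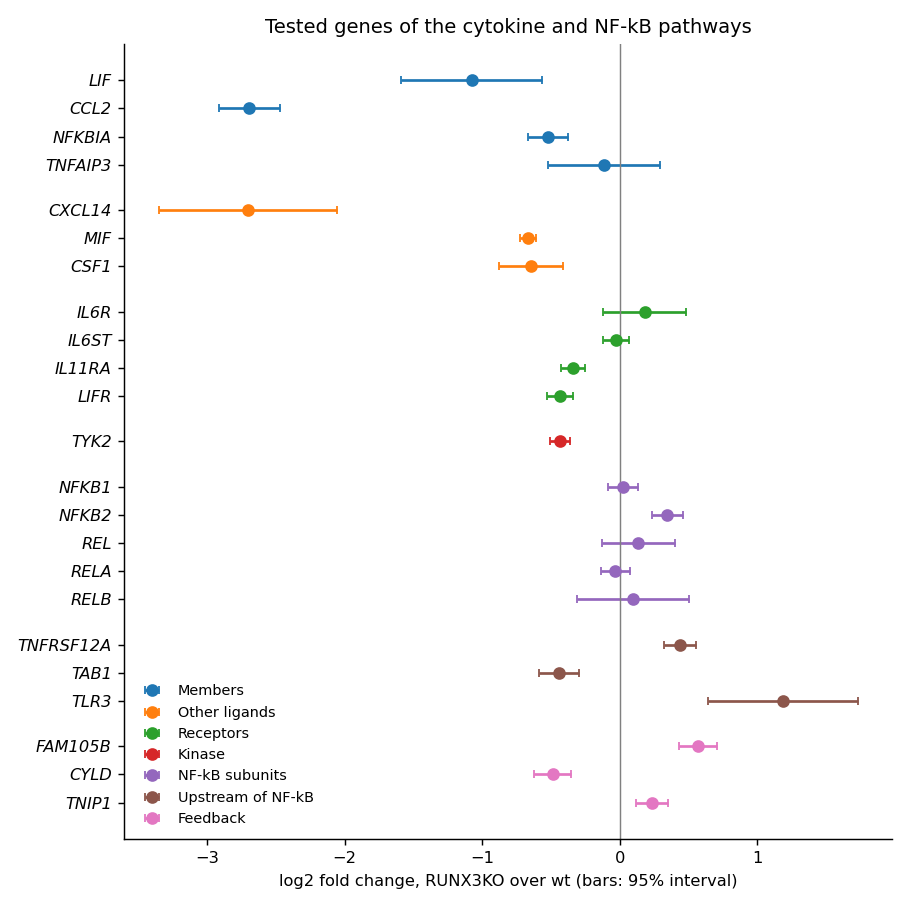
log2 fold change, RUNX3KO over wt (x axis), with 95% intervals (bars), for the 4 tested members and for named genes of the ligand, receptor, kinase and NF-kB groups. Of the genes plotted, which leave out SOCS2 and PTX3, CCL2 and CXCL14 have the largest falls, at -2.69 and -2.70, and TLR3 has the largest rise at 1.19, while 4 of the 5 subunit genes lie near 0 with NFKB2 at 0.35.

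Over all pathway lists, with each gene counted once, 142 of the 269 genes in the files were tested, and 26 fell and 34 rose. Of these, 5 fell and 5 rose by the rule of at least 2-fold, which 4.01% of all genes tested met as a fall and 2.11% as a rise. By DESeq2, 16 fell and 15 rose. By edgeR, 13 fell and 10 rose without RUNX3KO replicate 1, and 14 fell and 11 rose without RUNX3KO replicate 2. The median log2 fold change was 0.00056. The share of listed genes that changed can be read beside the 48.9% of all genes tested.

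**Figure D4:**
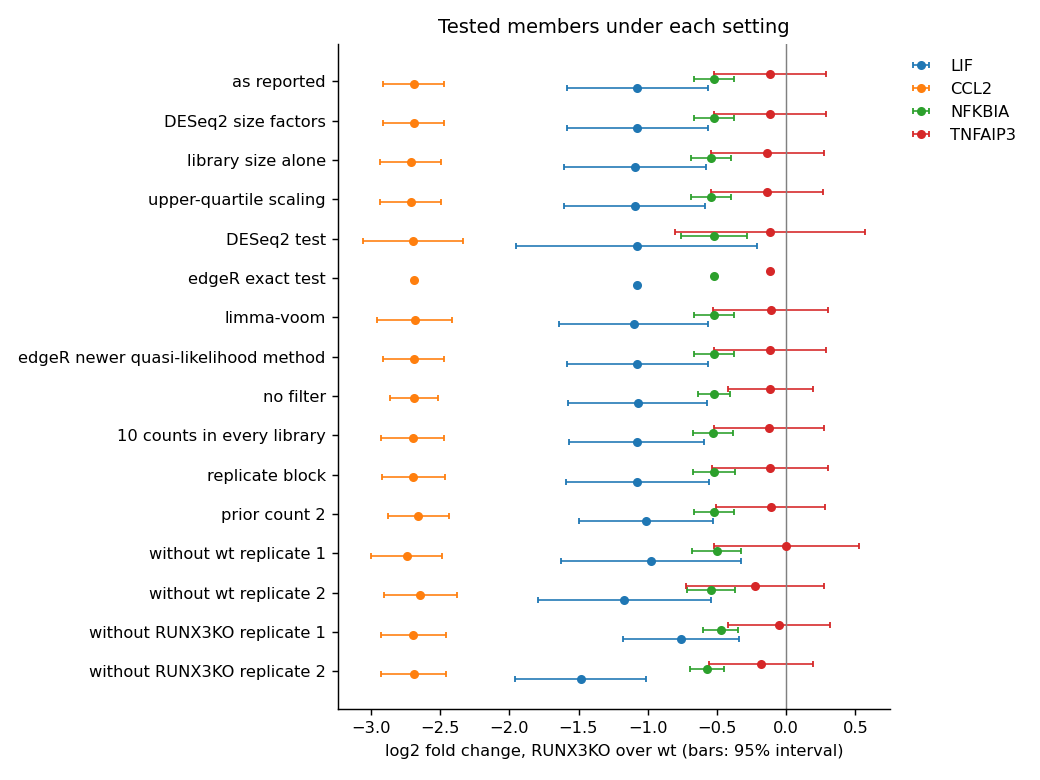
log2 fold change, RUNX3KO over wt (x axis), of the 4 tested members under the reported setting and each of 15 alternatives (y axis), with 95% intervals as bars, which edgeR's exact test does not give. CCL2 stays between -2.74 and -2.64 and NFKBIA between -0.57 and -0.47, LIF varies most, from -1.49 to -0.76, and TNFAIP3 lies between -0.23 and 0.0021.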

How the data were processed

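Poly(A) RNA of HGC27 cells was sequenced in 2 wt and 2 RUNX3KO libraries. The authors deposited raw read counts per gene symbol, without normalization. The submitters' processing notes list HISAT2 2.1.0, HTSeq and hg19, whereas the paper's methods name STAR, featureCounts and GENCODE. The strand setting is not given in the sources used here. The 5 rows of reads without a gene, 25.9% to 28.1% of all counts, were left out.

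From the deposited counts, edgeR 4.0.16 under R 4.3.3 was run with filterByExpr (at least 10 counts, total at least 15), TMM, glmQLFit and glmQLFTest, with Benjamini-Hochberg adjustment over the 12967 genes tested. Log2 fold changes are RUNX3KO over wt. Intervals are 95%, and floors of 3 counts and count intervals cover counting error only. At this depth, genes with few counts have imprecise fold changes. An exact permutation test of 2 against 2 libraries cannot give p below 0.333. On simulated counts of this comparison with 12919 genes tested, 94.3% of 88 genes changed by 2-fold were recovered, with 6 false calls overall. The simulation gave all genes the same small spread between replicates (dispersion 0.000211). It changed only genes with higher counts, and far fewer genes than were called here. Its rates therefore may not hold for genes with few counts or a larger spread.

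The members and gene lists were chosen with earlier results of these data known. Genes were named by a written rule: the 9 members, RUNX3, receptors of the 7 ligands, the 5 subunits, CXCL2, CXCL3, CXCL5 and CXCL6, the 3 smallest adjusted p under 0.05 of each pathway list, and the 2 profiles nearest to CCL2 (no member rose). Some genes that the rule names are not reported here. Positions came from GENCODE on GRCh37, matched for 93.3% of tested genes by symbol or synonym, and promoters from RefSeq (GRCh38.p14 table, placed on GRCh37 by exact match). The alternatives, among them DESeq2 1.42.0 and limma-voom (limma 3.58.1), stand in the closing section.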

Additional observations from a re-analysis of the deposited data

How the results depend on the processing

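Under the 15 alternatives, CCL2 and NFKBIA kept their direction and their call, with log2 fold changes from -2.74 to -2.64 and from -0.57 to -0.47. LIF kept its direction and was called in 13 of 15, the exceptions being DESeq2 and the fit without RUNX3KO replicate 1. TNFAIP3 was called in none, and its log2 fold change changed sign without wt replicate 1, to 0.0021, within a range from -0.23 to 0.0021 with each library left out. With each library left out in turn, from 2 to 3 members fell, and IL8, CXCL1 and CXCL12 stayed at 0 counts. Fits with 1 library in a group assume that it varies like the other group.

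Over all genes, DESeq2 called 1863 lower and 1829 higher in place of 3158 and 3183, and 16 lower and 15 higher list genes in place of 26 and 34. With a library left out, the numbers ranged from 1378 to 2806 lower and from 1285 to 2745 higher over all genes, and from 13 to 25 lower and from 10 to 28 higher over the lists, lowest without RUNX3KO replicate 1 (1531 and 1483 over all genes, 13 and 10 over the lists) or RUNX3KO replicate 2 (1378 and 1285, 14 and 11). Counts within single lists moved by over 1.5 times in 44 cases. With at least 10 counts required in every library, no other chemokine was called, since CXCL14 was not tested. Without a filter, 2464 genes were lower and 2447 higher. With a replicate block, 3143 genes were lower and 3143 higher and the same 3 members fell. The block has no basis in the labels beyond the number, and the deviations of same-numbered libraries had a correlation of 0.0218. The cause of these differences was not tested, apart from the fewer libraries or genes. Scaling shifted the median log2 fold change of all genes by at most 0.0207. Depth limits IL6 and IL11, which could not be tested with the filter.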

Other observations

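Factors that control the decay and stability of cytokine mRNA were all expressed. All 25 listed genes were tested, 1 fell, 6 rose and 18 did not pass edgeR's quasi-likelihood test at an adjusted p of 0.05, with a median log2 fold change of 0.04. ZFP36L1, which encodes an RNA-binding protein that promotes decay of AU-rich mRNA, fell from 516 and 485 counts in wt libraries to 371 and 412 in RUNX3KO libraries (log2 fold change -0.37, SE 0.0731). The 40 nearest tested genes of ZFP36L1 had a median of -0.21. AUH, an RNA-binding enzyme of mitochondria, rose from 120 and 110 to 244 and 226 counts (1.02, SE 0.116), among neighbours with a median of 0.34. CNOT7, a deadenylase subunit, rose by 0.25 (SE 0.0382). By DESeq2, 1 fell and 3 rose. Without RUNX3KO replicate 1, 0 fell and 2 rose, and without RUNX3KO replicate 2, 1 fell and 2 rose.

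C/EBP factors act together with NF-kB on the IL6 and IL8 promoters. Of 7 listed genes, 6 were tested, 1 fell, 3 rose and 2 did not pass, with a median log2 fold change of 0.13. CEBPB fell from 263 and 230 counts to 186 and 211 (-0.33, SE 0.102), whereas CEBPG rose by 0.17 (SE 0.0345) and CEBPZ, a CCAAT-binding protein gene outside the bZIP family of the others, by 0.11 (SE 0.0322). The adjusted p was 0.00519 for CEBPB, 1.76e-05 for CEBPG and 0.00354 for CEBPZ by edgeR's quasi-likelihood test. By DESeq2, 0 fell and 1 rose, and without either RUNX3KO replicate no C/EBP gene was called.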
